A study of Mus musculus with 10 samples.

Results

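The proteasome genes described here are the 48 genes of the deposited table whose symbol begins with Psma, Psmb, Psmc, Psmd, Psme, Psmf or Psmg followed by a digit, out of 12803 rows. A gene was included by its symbol alone, but the pattern itself was chosen with earlier results of these data known. Psmc3ip also fits the pattern, but it encodes a factor of meiotic recombination and no part of the proteasome, so counts are given with and without it. Psma8, the form of germ cells, and Psmb11, the form of the thymus, were not analysed here. RNA was sequenced from limb muscle stem cells of young male C57BL/6 mice, which had been isolated by flow cytometry as VCAM+ cells negative for CD45, CD31 and Sca1. A total of 3 libraries came from fresh cells at 0 h. Another 3 came from cells kept for 24 h in Ham's F-10 medium with 10% horse serum and the solvent DMSO (vehicle), and 4 from cells kept in the same medium with Tubastatin A at 40 µM in DMSO. Tubastatin A inhibits the tubulin deacetylase HDAC6. All cells had thus gone through the same sort, both cultured groups received DMSO, and each library came from 1 animal.

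The proteasome is the protease that breaks down most proteins tagged with ubiquitin. Its 20S core is a barrel of alpha and beta rings with the catalytic sites inside, and the 19S particle caps the barrel, binds the tagged protein, removes the tag, unfolds the protein with a ring of ATPases and feeds it into the core. Dedicated chaperones assemble both parts, alternative caps replace the 19S particle, and interferon can exchange the catalytic subunits for inducible ones that favour peptides for antigen presentation. When proteasome activity falls short, the transcription factor Nrf1 (gene Nfe2l1) is known to raise most subunit genes together.

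Levels are given in RPKM (reads divided by gene length in kilobases and by library size), in the order of replicates 1 to 3 of fresh and vehicle cells and 1 to 4 of Tubastatin A cells. A change is the difference between group means of log2(RPKM + 1), given with its SE (standard error), and p-values are those of limma adjusted over all 12803 genes. A gene rose or fell where the adjusted p was under 0.05, and folds are ratios of mean RPKM. The comparison of vehicle with fresh cells asks what a day in culture changes, and that of Tubastatin A with vehicle what the inhibitor changes in culture. The p-values rest on 1 spread between animals for each gene, pooled over the 3 groups. The spread of the fresh libraries thus also enters the comparison of Tubastatin A with vehicle. In bulk RNA, a change in the cells present and a change in RNA per cell cannot be told apart.

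Total reads per library, as recovered from the table, ran from 37.56M to 55.33M, and a member held 73 to 159340 of them. Exons of 15 of the 48 members overlap another gene, among them Psma5, Psmb5, Psmb7, Psmb8, Psmb9, Psmc3, Psmd3, Psmd9, Psmd13, Psme1, Psmg3 and Psmc3ip, and reads of such pairs may not be separable. Of the 8 muscle stem cell markers, all were measured, with summed levels of 2266 to 2546 RPKM in fresh, 403 to 419 RPKM in vehicle and 240.0 to 258 RPKM in Tubastatin A libraries. Over vehicle with Tubastatin A, 2 of these 8 rose and 5 fell, beside 29.6% of all genes higher and 29.7% lower. Hdac6, the target of the inhibitor, passed the test in no comparison, with 7.69 ± 0.916, 6.16 ± 0.313 and 6.60 ± 0.717 RPKM (SD, n = 3, 3 and 4). The 9 endothelial markers summed to 43.7 to 52.01 RPKM in fresh, 3.04 to 3.99 RPKM in vehicle and 5.35 to 6.59 RPKM in Tubastatin A libraries. The 8 markers of fibro-adipogenic progenitors, whose gate is Sca1, summed to 465 to 858, 40.6 to 48.2 and 12.0 to 19.5 RPKM. Over vehicle, 2 of these 8 rose and 2 fell, beside 29.6% and 29.7% of all genes. The other 4 did not pass, and Col3a1 fell most (log2 change -2.40). The 5 markers of pericytes and smooth muscle summed to 197 to 242, 174 to 239 and 11.2 to 61.9 RPKM. Acta2, which encodes smooth muscle actin, made up nearly all of the last sum, with means of 212, 212 and 23.04 RPKM, while the other 4 of these markers, Rgs5, Pdgfrb, Cspg4 and Myh11, fell in culture. The 3 tenocyte markers summed to 31.6 to 47.0 RPKM in fresh, 65.8 to 76.0 RPKM in vehicle and 2.11 to 8.91 RPKM in Tubastatin A libraries. Of these 3, Scx rose in culture and 2 fell. The 2 measured Schwann cell markers summed to 4.64 to 7.96, 0.169 to 0.361 and 0.0848 to 0.101 RPKM. The 1 measured erythroid marker, Hba-a1, stood at 4.63 to 17.4, 0.0111 to 0.0862 and 0.0111 to 0.0993 RPKM. The part of these cell types in the changes below was not tested.

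Most genes of the proteasome rose in culture, and most subunits rose further with Tubastatin A. The core chaperones Psmg1 to Psmg4 also rose in culture but fell with the inhibitor. Of the 48 members, 33 were higher in vehicle than in fresh cells, 2 were lower and 13 did not pass, beside 32.0% of all genes called higher and 35.0% called lower. Between Tubastatin A and vehicle, 33 were higher, 11 lower and 4 did not pass, beside 29.6% and 29.7% of all genes. Between Tubastatin A and fresh cells, 39 were higher, 7 lower and 2 did not pass, beside 29.8% and 35.2%. The median log2 change of the members was 0.63, 0.83 and 1.46 in these comparisons, and that of all genes -0.03, 0.02 and -0.03. Without Psmc3ip the 47 others gave 32 higher and 2 lower, 33 higher and 10 lower, and 39 higher and 6 lower. Each pair of these comparisons shares a group of libraries, so the 3 are not independent.

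**Figure D1:**
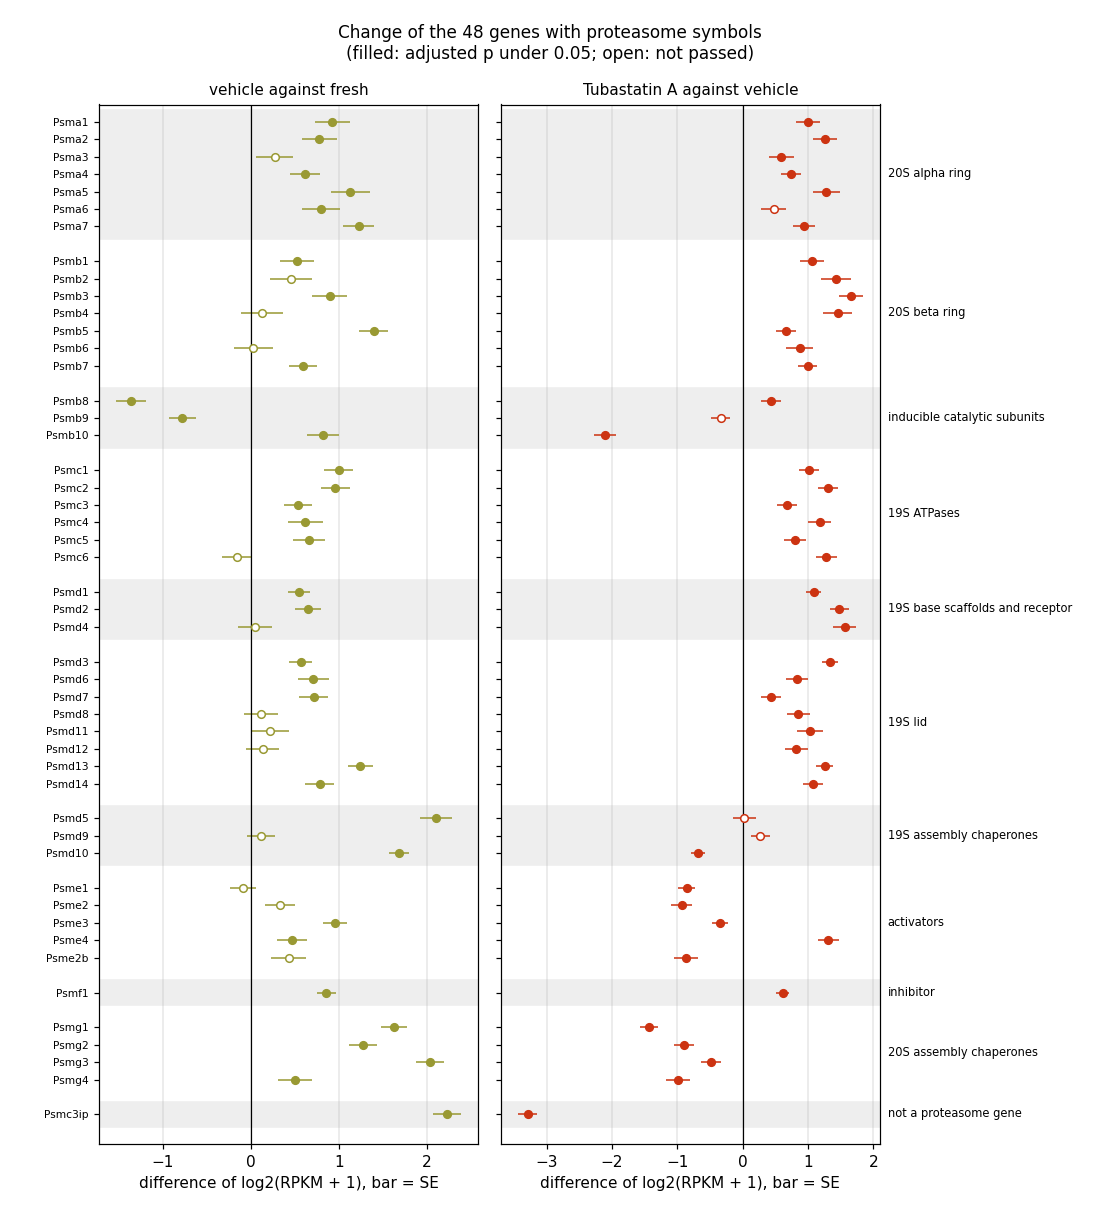
Difference of log2(RPKM + 1) of each of the 48 genes, grouped by role, between vehicle and fresh cells (left) and between Tubastatin A and vehicle cells (right). Points are limma estimates with SE bars, filled where the adjusted p was under 0.05; on the right the 31 standard subunits lie above 0 and the 4 core chaperones Psmg1 to Psmg4 below it.

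The 31 genes of the standard 26S proteasome are the 14 alpha and beta subunits of the core and 17 subunits of the 19S particle. Their summed level was 1978, 3400.0 and 2374 RPKM in the fresh libraries, 3617, 3925 and 3943 RPKM in vehicle, and 7754, 7819.8 and 7429.6 RPKM in Tubastatin A replicates 1 to 3, with 8734 RPKM in replicate 4. Every cultured library lay above every fresh one, and the Tubastatin A libraries above all others. Together with the chaperones, activators, inhibitor and inducible subunits, 47 genes made up 0.565% to 0.861% of the summed RPKM of a fresh library, 1.62% to 1.63% of a vehicle library and 3.29% to 3.55% of a Tubastatin A library. These shares also rest on the summed RPKM of all genes, which was higher in fresh than in vehicle libraries by 0.602 on the log2 scale. The 47 genes themselves summed to means of 2879, 4361 and 8305 RPKM. The 31 standard subunits held 88.6% to 90.6% of that sum in fresh, 87.5% to 88.1% in vehicle and 95.4% to 95.8% in Tubastatin A cells.

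**Figure D2:**
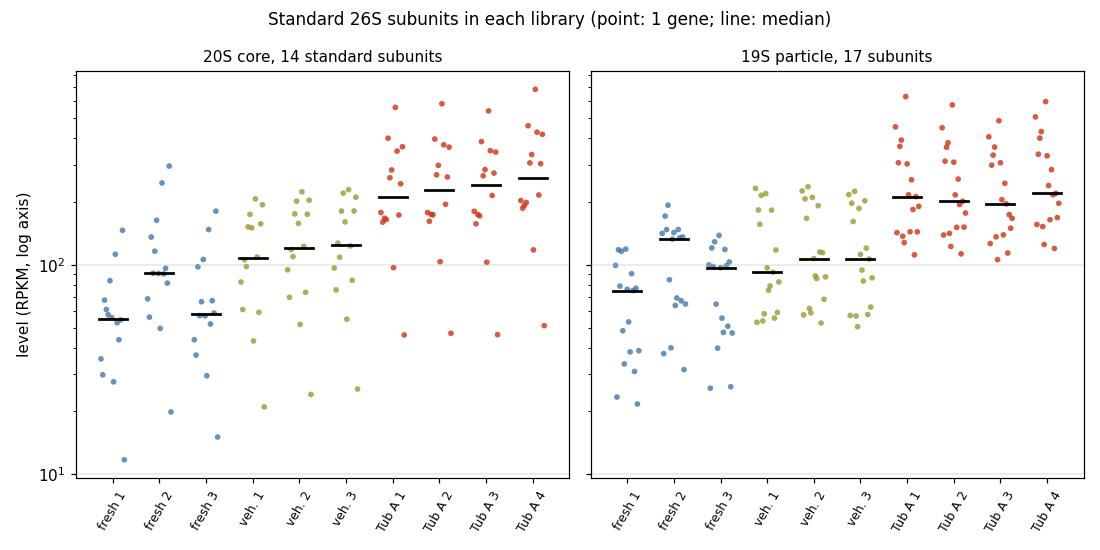
Level (RPKM, log axis) of the 14 standard core subunits (left) and the 17 subunits of the 19S particle (right) in each of the 10 libraries, with 1 point per gene and a line at the median. The median of the core lies between 55.2 and 90.9 RPKM in fresh, between 107 and 125 RPKM in vehicle and between 210.1 and 259 RPKM in Tubastatin A libraries.

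In vehicle culture, 22 of the 31 standard subunits rose, none fell and 9 did not pass, with a median log2 change of 0.62. The core gave 10 of 14 higher and the 19S particle 12 of 17. The groups did not overlap in 21 of the 31, beside 31.8% of all genes with all vehicle libraries above all fresh ones. Psmb5, the chymotrypsin-like catalytic subunit, measured 54.5, 81.7 and 58.8 RPKM in fresh and 156, 174 and 180.3 RPKM in vehicle libraries. Its log2 change of 1.39 (SE 0.16, adjusted p = 1.1e-05) was the largest of the 31. Psmd13, a lid subunit, rose from 21.7, 31.6 and 26.2 RPKM to 59.2, 68.4 and 62.8 RPKM, and Psma7, of the alpha ring, from 55.8, 90.8 and 56.98 to 149.8, 157 and 159.9 RPKM. In both genes the lowest vehicle library lay well above the highest fresh one. Psma3, Psmb2, Psmb4, Psmb6, Psmc6, Psmd4, Psmd8, Psmd11 and Psmd12 did not pass, with log2 changes between -0.16 (Psmc6) and 0.45 (Psmb2).

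The fresh libraries stood further apart than the others, with median deviations of the 31 from the rest of the group of -0.54 to 0.65 on the log2 scale, against -0.14 to 0.18 in cultured libraries. Fresh replicate 2 was the highest fresh library in 30 of the 31 standard subunits, and fresh replicate 1 the lowest in 29. The value of 0.65 is that of replicate 2. Genes of similar level (mean log2(RPKM + 1) of at least 4) with exons under 2000 bp in all deviated in replicate 2 by a median of 0.58, those of 2000 to 4000 bp by 0.27 and longer ones by -0.12. The part of gene length in the change of the subunits was not tested. In vehicle against fresh, genes above this minimum and under 2000 bp had a median log2 change of 0.48 and those of 2000 to 4000 bp one of 0.13. The 8 standard subunits in the first class had a median of 0.73 and the 17 in the second one of 0.62. Genes of 4000 bp and over had a median of -0.09, and the 6 standard subunits of that length one of 0.56. Without fresh replicate 2, 25 of the 31 rose in vehicle culture, among them Psma3, Psmb2 and Psmd11. Without fresh replicate 1, 21 rose and Psmc6, an ATPase, fell by 0.36.

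How libraries are scaled bears on this comparison. The fresh libraries held 1.394 to 1.413 reads per unit of the library size that the deposited RPKM rest on, and the cultured ones 0.83 to 0.929. With equal column sums in every library, the scaling of vehicle against fresh moved by 0.602 on the log2 scale. Then 6280 genes rose and 2892 fell in vehicle, against 4096 and 4484 as deposited. Of the 48 members 46 rose, including all 31 standard subunits. Between Tubastatin A and fresh cells the same scaling gave 7004 genes higher and 2481 lower against 3811 and 4503. Psmb8 and Psmb9 fell in vehicle under each scaling.

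With Tubastatin A, 30 of the 31 standard subunits rose over vehicle, and no Tubastatin A library overlapped a vehicle library in any of the 31, beside 34.8% of all genes without such an overlap and higher in Tubastatin A. Folds ran from 1.36 for Psmd7, a lid subunit, to 3.17 for Psmb3, of the beta ring, with a median log2 change of 1.03. Psma6 did not pass, with 174, 201 and 219 RPKM in vehicle and 259.6, 268, 265 and 305 RPKM in Tubastatin A libraries and a log2 difference of 0.47 (SE 0.20, adjusted p = 0.057). It passed without fresh replicate 1 or 2, with the same difference, and with equal column sums (0.59), upper quartiles (0.59) and total recovered reads (0.55). In a fit of only the groups compared, all 31 standard subunits rose over vehicle, and 20 rose in vehicle against fresh. That fit called 4490 of all genes higher over vehicle, against 3796. The call of Psmd7 was lost without any 1 of the vehicle libraries or without Tubastatin A replicate 1, 2 or 4, with log2 changes of 0.39 to 0.47. The call of Psma3 was lost without vehicle replicate 1 or 2 or Tubastatin A replicate 4. In this comparison, genes of similar level had medians of -0.38 under 2000 bp, -0.17 at 2000 to 4000 bp and 0.03 at 4000 bp and over. The subunits of those lengths had medians of 0.95, 0.99 and 1.2, and the part of gene length was not tested. Against fresh cells all 31 rose with Tubastatin A, by 1.76-fold (Psma3) to 5.77-fold (Psmd13).

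Psmb3, a non-catalytic subunit of the beta ring, rose most over vehicle. It measured 52.9, 90.4 and 52.1 RPKM in fresh, 109, 122 and 123 RPKM in vehicle and 348, 373, 349 and 428 RPKM in Tubastatin A libraries. Its rise over vehicle was 1.66 on the log2 scale (SE 0.18, adjusted p = 1.2e-05). Psmb4 and Psmb2, also without a catalytic site, did not pass between vehicle and fresh. Psmb4 measured 43.9, 96.1 and 67.3 RPKM in fresh, 59.2, 73.8 and 84.2 RPKM in vehicle and 173, 194, 214 and 215 RPKM in Tubastatin A libraries, a 2.75-fold rise over vehicle. Psmb2 measured 112, 245 and 147, 206, 222 and 228 and 562, 585, 541 and 685 RPKM, a 2.71-fold rise. In both genes fresh replicate 2 lay above the vehicle range and all Tubastatin A libraries stood clear of it. In the alpha ring, Psma5 gave the largest rise, from 151, 175 and 180.0 RPKM in vehicle to 401, 397, 386 and 459 RPKM, after 57.7, 116 and 66.6 RPKM in fresh libraries. Psma7 of the same ring reached 283, 297, 284 and 335 RPKM with Tubastatin A.

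All 17 subunits of the 19S particle rose with Tubastatin A. Psmd4, the receptor that binds ubiquitin chains, measured 76.3, 142 and 96.8 RPKM in fresh, 96.6, 107 and 112 RPKM in vehicle and 302, 308, 306 and 330.3 RPKM in Tubastatin A libraries. The fresh and vehicle libraries overlapped, and the change over vehicle was 1.56 (SE 0.18, adjusted p = 1.6e-05). Psmd2, the scaffold that holds receptors and shuttle factors, stood at 119, 132 and 138 RPKM, 218, 209 and 185 RPKM and 633, 577, 485 and 599 RPKM and was the most abundant 19S gene in each Tubastatin A library. Psmd13 of the lid reached 143, 151, 149 and 168 RPKM with Tubastatin A, and its total change against fresh cells was 2.50 (SE 0.13). Among the 6 ATPases, Psmc2 rose most over vehicle, from 53.1, 57.6 and 57.3 to 142, 138, 126 and 155 RPKM, after 23.4, 37.6 and 25.8 RPKM in fresh libraries. Psmd14, the deubiquitinase of the lid, rose 2.13-fold. The ATPases as a class gave log2 changes over vehicle of 0.68 (Psmc3) to 1.31 (Psmc2), and the lid of 0.44 (Psmd7) to 1.34 (Psmd3).

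Psma1, Psma2 and Psma4 of the alpha ring had vehicle means (± SD, n = 3) of 91.2 ± 7.45, 68.9 ± 7.41 and 105 ± 6.26 RPKM and Tubastatin A means (n = 4) of 184 ± 12.1, 166 ± 13.6 and 176 ± 14.8 RPKM. Each rose at both steps. Psmc1, the most abundant ATPase with Tubastatin A, went from 113 ± 23.9 RPKM in fresh to 224 ± 7.68 RPKM in vehicle and 454 ± 40.8 RPKM. Psmc3, Psmc4 and Psmc5 rose 1.43-fold, 1.49-fold and 1.54-fold in culture and 1.61-fold, 2.27-fold and 1.75-fold over vehicle. The call of Psmc4 in culture was lost without fresh replicate 3. Psmd1, the other large scaffold of the base, and Psmd3 of the lid rose 2.14-fold and 2.54-fold over vehicle, and Psmd6 of the lid by 0.84 on the log2 scale. Psmd8, Psmd11 and Psmd12, lid subunits that had not passed in culture, rose 1.81-fold, 2.06-fold and 1.78-fold over vehicle. Psmb1 rose 2.10-fold over vehicle, and its rise in culture (0.52, adjusted p = 0.032) was lost without fresh replicate 1 or 3 or vehicle replicate 2 or 3.

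The changes in culture and over vehicle differed in size between subunits. Psmb5 and Psma7 had larger log2 changes in vehicle against fresh (1.39 and 1.22) than in Tubastatin A against vehicle (0.66 and 0.94). For Psmd4, Psmb4 and Psmc6 the order was the opposite, with 0.05, 0.12 and -0.16 in the first comparison and 1.56, 1.45 and 1.28 in the second. Both comparisons use the vehicle libraries, and the difference between them was not tested. Within the core, the coefficient of variation among the 14 subunits was 58.4% to 66.2% in fresh, 47.7% to 50.3% in vehicle and 51.5% to 56.2% in Tubastatin A libraries. Psmb7 was the lowest of the 14 in each library, with Psmb6 the highest in fresh and Psmb2 in cultured ones. The level of Psmb7 rests on 3421 bp of exons, of which its longest coding transcript holds 1160 bp, and these exons overlap the gene Nek6 on the opposite strand.

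A shared motif was looked for in RefSeq promoters (build GRCm38.p6, 250 bases before to 50 after the start), which matched 41 of the 48 members. The motif TGACNNNGC, bound by Nrf1 and Nrf2 with small Maf proteins, was found on either strand in 6 of the 41 members (14.6%) and in 17.2% of the 9980 genes of the table with a promoter. Among standard subunits it was in 4 of 25 (16.0%). The 6 sites are printed because the genes of the complex moved together in the data. The capitals mark the motif, and each is read 5′ to 3′ on the strand that holds it.
Psmb5: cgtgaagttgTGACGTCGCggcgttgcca
Psmb6: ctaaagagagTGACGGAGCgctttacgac
Psmc6: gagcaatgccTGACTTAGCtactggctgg
Psmd12: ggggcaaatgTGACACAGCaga
Psmd9: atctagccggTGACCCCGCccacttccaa
Psme4: gctcttctggTGACGCTGCagccgcagcg
They lie at chr14:54618024-54618052 (minus strand), chr11:70525338-70525366 (plus), chr14:45329587-45329615 (minus), chr11:107479278-107479299 (minus), chr5:123228149-123228177 (plus) and chr11:30771758-30771786 (minus), in the order printed. The motif begins 9 bases before the start of Psmb6 and 47 before that of Psmb5. The printed site of Psme4 falls in an annotated exon, and that of Psmd12 is cut to 22 bases at the edge of the window. These 6 genes include catalytic subunits, an ATPase, a lid subunit, a chaperone and an activator. Over vehicle, 5 of them rose with Tubastatin A and Psmd9 did not pass, with log2 changes of 0.27 (Psmd9) to 1.31 (Psme4). Of all 48 members 33 rose in this comparison, and of all genes 29.6%, and a link of the motif to these changes was not tested.

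The element GAAA, any 2 bases and a further GAAA, found in genes that respond to interferon, was in 5 of 41 members (12.2%) and in 3.5% of all genes with a promoter. It is printed for 3 members whose RNA moved in different directions with Tubastatin A, with the element in capitals.
Psmb3: atggaaagcgGAAAGTGAAAagtcactgtg
Psme1: agcgggaaggGAAAGCGAAAgcacagctcg
Psmg4: gcgcgcatctGAAAGTGAAAgagcgttccg
These lie at chr11:97703261-97703290 (minus strand), chr14:55578493-55578522 (minus) and chr13:34162969-34162998 (plus), and those of Psme1 and Psmg4 fall in an annotated exon. Psmb3 rose over vehicle while Psme1 and Psmg4 fell. The other 2 members with the element were Psmd4 and Psmd9, and none of the 3 inducible catalytic subunits held it in this window. The pentamer CCAAT of the factor NF-Y was in 34.1% of members and 43.0% of genes, GAANNTTC of the heat shock factor in 7.3% and 6.9%, and TTCNNNGAA of STAT factors in 7.3% and 8.1%. The last 3 are searched on both strands like the others, a match is no evidence of binding, and the motifs can overlap each other.

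The standard catalytic subunits and the inducible ones that can replace them went different ways. Psmb6, the caspase-like subunit, measured 146, 295 and 179.9 RPKM in fresh, 193, 203 and 209.7 RPKM in vehicle and 365, 363, 344 and 418 RPKM in Tubastatin A libraries, and passed over vehicle (log2 change 0.88, SE 0.21) but not between vehicle and fresh. Psmb7, the trypsin-like subunit, rose in both steps, with 11.8, 19.9 and 15.1, 20.97, 24.1 and 25.5 and 46.2, 47.1, 46.4 and 51.2 RPKM. Psmb5 rose from the vehicle levels given above to 243, 262, 273 and 303 RPKM with Tubastatin A, 1.59-fold. None of the 3 overlapped between vehicle and Tubastatin A libraries.

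Psmb8, the inducible counterpart of Psmb5, measured 3.50, 6.11 and 3.40 RPKM in fresh, 0.993, 1.03 and 1.06 RPKM in vehicle and 1.86, 1.66, 1.56 and 1.93 RPKM in Tubastatin A libraries. It fell in culture by 1.36 (SE 0.17, adjusted p = 1.7e-05) and stood above vehicle with Tubastatin A by 0.44 (SE 0.16, adjusted p = 0.03), 1.70-fold, which is larger than the log2 value shows because of the added 1 RPKM. The second call was lost without any 1 of the vehicle libraries or Tubastatin A replicate 1 or 4, with adjusted p of 0.066 to 0.077. Psmb9, the counterpart of Psmb6, measured 2.14, 3.57 and 1.86 RPKM in fresh, 0.991, 1.04 and 1.02 RPKM in vehicle and 0.670, 0.542, 0.682 and 0.501 RPKM in Tubastatin A libraries. It fell in culture by 0.78 (SE 0.15) and did not pass over vehicle (log2 difference -0.34, SE 0.14, adjusted p = 0.057), although its Tubastatin A libraries all lay below the vehicle ones. With a pseudocount of 0.1 RPKM that difference was -0.68 and passed, and as given it also passed without any 1 of the fresh libraries and, with equal column sums, at -0.30. Its exons overlap those of Tap1 on the opposite strand, and reads of the pair may not be separable.

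Psmb10, the counterpart of Psmb7, was the inducible subunit with the highest level. It measured 10.1, 17.3 and 10.5 RPKM in fresh, 20.3, 21.01 and 25.96 RPKM in vehicle and 3.96, 4.40, 4.52 and 4.80 RPKM in Tubastatin A libraries. The fresh and vehicle libraries did not overlap, and those of Tubastatin A lay below both. It rose in culture by 0.81 (SE 0.18) and fell over vehicle by 2.11 (SE 0.17, adjusted p = 9.3e-07), to 0.20 of the vehicle mean. Per standard counterpart, Psmb10 stood at 80.8% ± 9.58 of Psmb7 in fresh, 95.3% ± 7.31 in vehicle and 9.26% ± 0.4998 in Tubastatin A libraries (SD, n = 3, 3 and 4). Psmb8 stood at 6.56% ± 0.860 of Psmb5, 0.605% ± 0.0254 and 0.651% ± 0.0814, and Psmb9 at 1.24% ± 0.217 of Psmb6, 0.504% ± 0.0158 and 0.163% ± 0.0352. These ratios depend on the gene lengths behind RPKM, and with the longest coding transcripts, an alternative chosen after seeing the data, Psmb10 came to 35.6%, 42.04% and 4.08% of Psmb7 and Psmb8 to 13.6%, 1.26% and 1.35% of Psmb5.

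**Figure D3:**
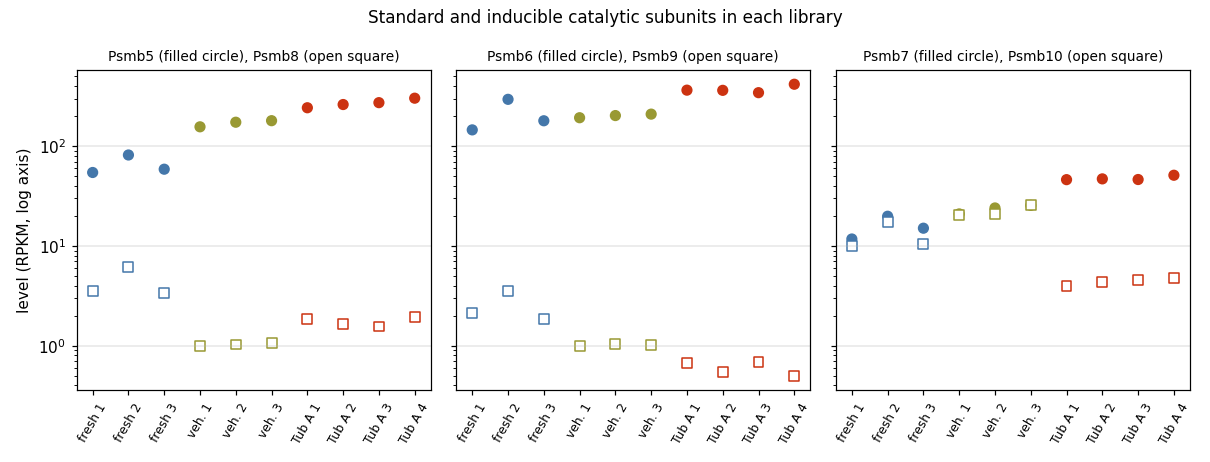
Level (RPKM, log axis) of each standard catalytic subunit (filled circles) and its inducible counterpart (open squares) in the 10 libraries. Psmb10 lies close to Psmb7 in fresh and vehicle libraries and at 9.26% of it with Tubastatin A, while Psmb8 and Psmb9 lie far below their counterparts in all libraries.

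Immune cells are rich in the inducible subunits and are excluded by the CD45 gate. Of 14 immune markers, 7 were measured, and their summed level was 15.2 to 28.9 RPKM in fresh, 0.927 to 1.45 RPKM in vehicle and 7.80 to 10.6 RPKM in Tubastatin A libraries. Of these 7, 6 fell in culture and 2 rose with Tubastatin A. The sum with Tubastatin A was mostly that of these 2, H2-Ab1, a class II chain (means of 2.83 RPKM in fresh, 0.0416 RPKM in vehicle and 5.60 RPKM with Tubastatin A), and Cd68, a lysosomal protein of macrophages (2.07, 0.759 and 2.96 RPKM). The other 5 stood near 0 there, among them Lyz2 (0.107 RPKM after 4.17 RPKM in fresh) and Cd74 (0.0896 RPKM after 8.38 RPKM). The defining markers Ptprc, Csf1r, Adgre1, Tyrobp, Fcer1g, H2-Aa and Cd3e were not analysed here. By group means, Psmb8 was lowest in vehicle, Psmb9 lowest with Tubastatin A and Psmb10 highest in vehicle. The part of immune cells in these changes was not tested. The 7 antigen presentation genes of the partner list gave none higher and 6 lower in vehicle against fresh, beside 32.0% and 35.0% of all genes. Over vehicle with Tubastatin A, these 7 gave 5 higher and 1 lower, beside 29.6% and 29.7% of all genes. B2m, the light chain of class I molecules, is among them, and so is Tap1, the peptide transporter encoded beside Psmb9, which did not pass over vehicle (log2 difference 0.32, adjusted p = 0.06) but passed with equal column sums (0.43), upper quartiles (0.41) and total recovered reads (0.39). Both were chosen after their values were seen.

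The chaperones Psmg1 to Psmg4, which assemble the 20S core, rose in culture, as did 10 of its 14 standard subunits. With Tubastatin A these chaperones fell, while 13 of the 14 core subunits rose. Psmg1 and Psmg2 form a dimer that guides the alpha ring, and Psmg3 and Psmg4 another. All 4 rose in vehicle against fresh, and all 4 fell over vehicle with no overlap between those libraries, beside 33.8% of all genes without overlap and lower in Tubastatin A. Psmg1 measured 13.6, 14.1 and 9.94 RPKM in fresh, 35.8, 40.3 and 45.4 RPKM in vehicle and 13.9, 14.2, 16.02 and 13.1 RPKM in Tubastatin A libraries. Its change was 1.62 (SE 0.14) in culture and -1.44 (SE 0.13, adjusted p = 3.1e-06) over vehicle, and the Tubastatin A and fresh libraries overlapped. Psmg2 went from 14.5, 22.1 and 13.6 RPKM to 37.5, 41.5 and 44.4 RPKM in vehicle and 21.3, 20.4, 21.3 and 23.6 RPKM with Tubastatin A, a fall over vehicle of 0.89 (SE 0.15).

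Psmg3 was low in fresh cells, at 2.51, 2.58 and 1.72 RPKM, and reached 10.02, 13.1 and 14.01 RPKM in vehicle and 7.14, 8.49, 9.27 and 9.27 RPKM in Tubastatin A libraries. It rose 5.45-fold in culture, the largest fold among proteasome genes, and its fall over vehicle was 0.48 (SE 0.15, adjusted p = 0.016), a call lost without vehicle replicate 2 or 3 or Tubastatin A replicate 1 (-0.44 to -0.39) and with upper quartiles (-0.38). Psmg4 measured 22.6, 38.5 and 27.1 RPKM, 33.95, 41.3 and 49.1 RPKM and 17.3, 21.1, 23.96 and 18.9 RPKM and fell over vehicle by 0.99 (SE 0.18). Its rise in culture of 0.50 (SE 0.20, adjusted p = 0.04) was lost without fresh replicate 1 or 3, vehicle replicate 2 or 3, or Tubastatin A replicate 2 or 4. Against fresh cells, Psmg2 and Psmg3 were higher with Tubastatin A, Psmg4 was lower and Psmg1 did not pass. There the call of Psmg2 was lost without fresh replicate 1 or 3, vehicle replicate 2 or 3, or any 1 of the Tubastatin A libraries (0.26 to 0.41), and that of Psmg4 without fresh replicate 2 or 3 or Tubastatin A replicate 1, 2 or 4 (-0.53 to -0.28). The call of Psmg4 was also lost with medians of ratios (-0.42) and upper quartiles (-0.31), and its change turned to 0.21 with equal column sums and 0.17 with total recovered reads. Psmg1 was higher than in fresh cells with equal column sums (0.86), total recovered reads (0.82) and upper quartiles (0.36). Together the 4 genes held 1.98% to 2.38% of the summed RPKM of the 47 proteasome genes in fresh, 2.84% to 3.40% in vehicle and 0.712% to 0.906% in Tubastatin A libraries. Pomp, the maturation factor of the beta ring, whose symbol lies outside the pattern, rose in both steps instead, with 12.4, 23.3 and 14.1 RPKM in fresh, 30.9, 35.7 and 36.2 RPKM in vehicle and 52.5, 58.1, 57.8 and 62.5 RPKM in Tubastatin A libraries.

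The chaperones of the 19S base followed no single pattern. Psmd5 measured 13.6, 9.34 and 7.89 RPKM in fresh, 50.05, 47.95 and 41.8 RPKM in vehicle and 52.2, 48.8, 37.8 and 52.4 RPKM in Tubastatin A libraries. It rose in culture by 2.10 (SE 0.18, adjusted p = 9.5e-07), and the vehicle and Tubastatin A libraries overlapped (log2 difference 0.03, SE 0.17, adjusted p = 0.9). Psmd10, also called gankyrin, rose from 9.21, 10.8 and 8.96 RPKM to 32.7, 32.3 and 34.3 RPKM in vehicle and fell to 19.03, 20.8, 18.6 and 22.8 RPKM with Tubastatin A, which lay between both other groups. Psmd9 measured 8.02, 11.2 and 6.90 RPKM, 8.20, 9.27 and 10.6 RPKM and 10.5, 11.2, 11.5 and 12.5 RPKM and as deposited passed between Tubastatin A and fresh cells (log2 change 0.38, adjusted p = 0.039) and in neither other comparison. That call was lost without fresh replicate 1 or 3, vehicle replicate 2, or Tubastatin A replicate 2, 3 or 4 (0.25 to 0.39). Psmd9 also rose in culture with equal column sums (0.64) and total recovered reads (0.65), and over vehicle with equal column sums (0.39), with upper quartiles (0.38) and without fresh replicate 2 (0.27).

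**Figure D4:**
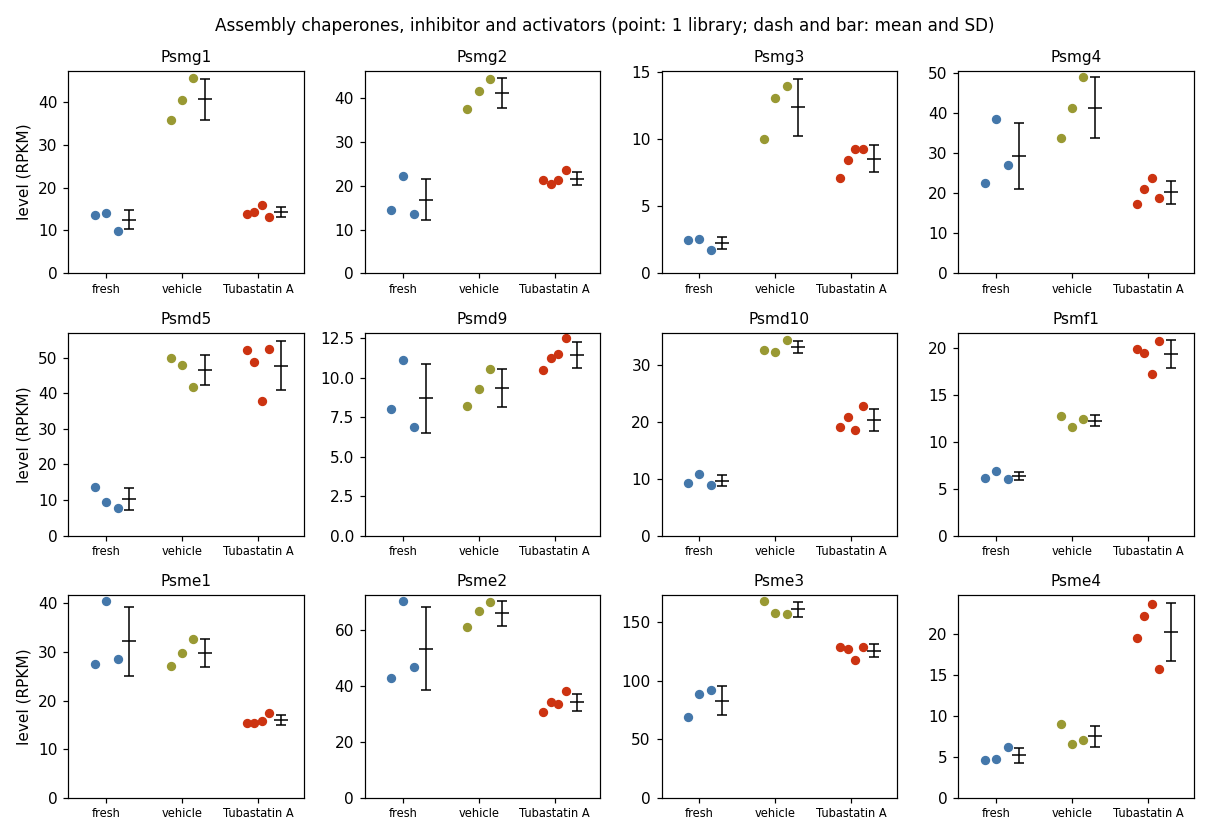
Level (RPKM) of the assembly chaperones Psmg1 to Psmg4, Psmd5, Psmd9 and Psmd10, the inhibitor Psmf1 and the activators Psme1 to Psme4, with 1 point per library and the mean and SD beside each group (n = 3, 3 and 4). In Psmg1 and Psmg2 vehicle stands above both other groups, and in Psme4 Tubastatin A stands above both others.

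Among the activators, which open the core without ubiquitin, Psme4 was the one that rose with Tubastatin A. Psme1 and Psme2 together form the cap that interferon induces. Psme1 measured 27.6, 40.4 and 28.5 RPKM in fresh, 27.01, 29.7 and 32.6 RPKM in vehicle and 15.3, 15.4, 15.7 and 17.4 RPKM in Tubastatin A libraries, and fell over vehicle by 0.86 (SE 0.14, adjusted p = 0.00019). Psme2 measured 42.9, 70.2 and 46.8, 61.1, 66.5 and 70.01 and 30.6, 34.2, 33.5 and 37.98 RPKM, and fell by 0.93 (SE 0.16). Both overlapped between fresh and vehicle and did not pass there as deposited. Under other scalings they rose in culture, Psme1 by 0.49 and Psme2 by 0.92 with equal column sums and by 0.50 and 0.93 with total recovered reads, and Psme2 also by 0.40 with upper quartiles, 0.42 with medians of ratios and 0.54 without fresh replicate 2. Both were lower with Tubastatin A than in fresh cells, although with equal column sums the change of Psme2 turned to 0.11, and with total recovered reads that of Psme2 turned to 0.07 and the call of Psme1 was lost (-0.29). Psme2b, a near copy of Psme2 whose reads may not be separable from it, went from 7.05, 7.95 and 9.44 RPKM in vehicle to 4.44, 3.41, 3.43 and 4.92 RPKM, after 4.59, 8.13 and 5.04 RPKM in fresh libraries.

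Psme3, the cap of nuclear proteasomes, rose in culture from 68.6, 88.4 and 91.9 RPKM to 168, 158 and 156 RPKM and stood at 129, 127, 118 and 129 RPKM with Tubastatin A. Its fall over vehicle of 0.35 (SE 0.12, adjusted p = 0.027) was lost without any 1 of the vehicle libraries or Tubastatin A replicate 1, 2 or 3, and with equal column sums (-0.23), upper quartiles (-0.24) and total recovered reads (-0.27). Psme4, a large single-chain activator found in the nucleus, measured 4.61, 4.76 and 6.20 RPKM in fresh, 8.997, 6.55 and 7.11 RPKM in vehicle and 19.5, 22.3, 23.7 and 15.7 RPKM in Tubastatin A libraries, and rose over vehicle by 1.31 (SE 0.16, adjusted p = 2.5e-05). Its smaller rise in culture (0.47, adjusted p = 0.03) was lost without fresh replicate 1 or 2 or vehicle replicate 1. Psmf1, named for its inhibition of the core, rose in both steps without overlap, with 6.10, 6.86 and 6.07 RPKM in fresh, 12.8, 11.6 and 12.4 RPKM in vehicle and 19.96, 19.5, 17.2 and 20.8 RPKM in Tubastatin A libraries. It changed by 0.86 (SE 0.11) and 0.61 (SE 0.10).

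Psmc3ip, a partner of the recombinases of DNA repair and meiosis, had the largest changes of the 48 genes in culture and over vehicle. It measured 2.76, 4.23 and 2.74 RPKM in fresh, 17.2, 19.03 and 19.6 RPKM in vehicle and 0.855, 1.06, 1.32 and 0.810 RPKM in Tubastatin A libraries. It rose 5.74-fold in culture and fell over vehicle by 3.29 on the log2 scale (SE 0.15, adjusted p = 8.0e-09), below its fresh level.

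A list of 51 other measured genes of the ubiquitin and proteasome pathway gave 11 higher, 23 lower and 17 that did not pass in vehicle against fresh, beside 32.0% of all genes higher and 35.0% lower. The balance turned with equal column sums and with total recovered reads, each of which gave 25 higher and 18 lower. With Tubastatin A, 33 were higher than in vehicle, 6 lower and 12 did not pass, beside 29.6% of all genes higher and 29.7% lower. Against fresh cells 22 were higher and 20 lower, beside 29.8% and 35.2% of all genes. These became 31 and 11 with equal column sums and 30 and 12 with total recovered reads. The median log2 change of the list was -0.23, 0.63 and 0.20. Ubb, which encodes ubiquitin in tandem copies, fell in culture and rose over vehicle with Tubastatin A. It measured 4576, 5441 and 2967 RPKM in fresh, 611, 538 and 488 RPKM in vehicle and 3235, 2845, 2229.7 and 3256 RPKM in Tubastatin A libraries. The vehicle libraries lay below all others, while those of fresh and Tubastatin A cells overlapped. The rise over vehicle was 2.39 (SE 0.27).

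Adrm1, a ubiquitin receptor of the 19S particle, did not pass in culture (0.28, adjusted p = 0.17) but rose there with equal column sums (0.87), with total recovered reads (0.88) and without fresh replicate 2 (0.51), and it rose over vehicle by 1.05. The deubiquitinases that sit on the 19S particle differed. Usp14 rose from 22.8, 23.7 and 22.6 RPKM in vehicle to 56.7, 53.4, 47.7 and 55.96 RPKM with Tubastatin A, and Uchl5 fell from 50.2, 48.8 and 48.6 RPKM to 30.9, 29.4, 26.2 and 29.9 RPKM. All 7 genes of the p97 segregase, which pulls tagged proteins out of complexes and membranes, rose over vehicle, among them Ufd1, a ubiquitin-binding cofactor (19.4, 20.2 and 17.6 RPKM to 72.7, 73.4, 65.9 and 83.96 RPKM), and Nsfl1c, another cofactor (2.46-fold). Of the 10 shuttle factors, 6 rose and 1 fell. The counts of p97 genes and shuttle factors stand beside 29.6% of all genes higher and 29.7% lower over vehicle. Zfand2a, which is induced by arsenite and heat shock, went from 7.34, 7.68 and 8.49 RPKM in vehicle to 69.6, 75.9, 70.9 and 80.3 RPKM, the largest rise of the list at 9.46-fold, after 30.5, 16.2 and 22.3 RPKM in fresh libraries. Zfand5, an activator of the proteasome, and Nub1, which delivers NEDD8 to it, rose 2.72-fold and 2.19-fold over vehicle.

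Of the 15 regulators, none rose and 10 fell in vehicle against fresh, beside 32.0% and 35.0% of all genes. Equal column sums and total recovered reads each gave 2 higher and 10 lower there. Over vehicle with Tubastatin A, 8 rose and 2 fell, beside 29.6% and 29.7% of all genes. Nfe2l1, which encodes Nrf1, measured 51.5, 32.6 and 47.7 RPKM in fresh, 42.2, 33.4 and 34.1 RPKM in vehicle and 57.5, 52.8, 46.7 and 43.1 RPKM in Tubastatin A libraries. It passed over vehicle (0.44, SE 0.17, adjusted p = 0.037) and as deposited in no other comparison, while it was higher than in fresh cells with equal column sums (0.91) and total recovered reads (0.87) and lower in vehicle than in fresh cells without fresh replicate 2 (-0.44). Nfe2l2, which encodes Nrf2, fell in culture from 89.6, 164 and 145 RPKM to 51.6, 51.3 and 45.8 RPKM and rose to 87.2, 78.9, 62.3 and 82.7 RPKM with Tubastatin A. The call of Nfe2l1 over vehicle was lost without vehicle replicate 2 or 3 or Tubastatin A replicate 1, 2 or 3 (0.37 to 0.47), and that of Nfe2l2 without vehicle replicate 3 (0.58). The small Maf partners of both factors differed. Mafk went from 577, 484 and 584 RPKM in fresh to 15.9, 16.5 and 18.3 RPKM in vehicle and 83.8, 90.7, 84.04 and 99.2 RPKM in Tubastatin A libraries, and Maff from 468, 378 and 487 to 10.5, 13.1 and 12.9 and 42.3, 44.1, 44.5 and 43.2 RPKM. Mafg measured 19.8, 20.3 and 27.4 RPKM in fresh, 17.6, 15.4 and 18.8 RPKM in vehicle and 33.9, 35.3, 41.4 and 31.9 RPKM in Tubastatin A libraries. It did not pass in culture (-0.35, adjusted p just above 0.05) and with Tubastatin A was higher than in vehicle (2.07-fold) and in fresh cells (log2 change 0.65, adjusted p = 0.0013), where Mafk and Maff were lower (-2.60 and -3.31). Stat3, a cytokine-activated factor, fell in culture to 0.04 of its fresh mean and rose 3.19-fold over vehicle. Irf1, the interferon-induced factor that acts on the inducible subunits, fell at each step, with 127, 78.6 and 62.3 RPKM in fresh, 11.4, 12.8 and 14.5 RPKM in vehicle and 4.41, 4.64, 5.21 and 5.66 RPKM in Tubastatin A libraries. Nfyb, a subunit of NF-Y, fell in culture by 1.84 (SE 0.11) and did not pass over vehicle (adjusted p = 0.56).

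**Figure D5:**
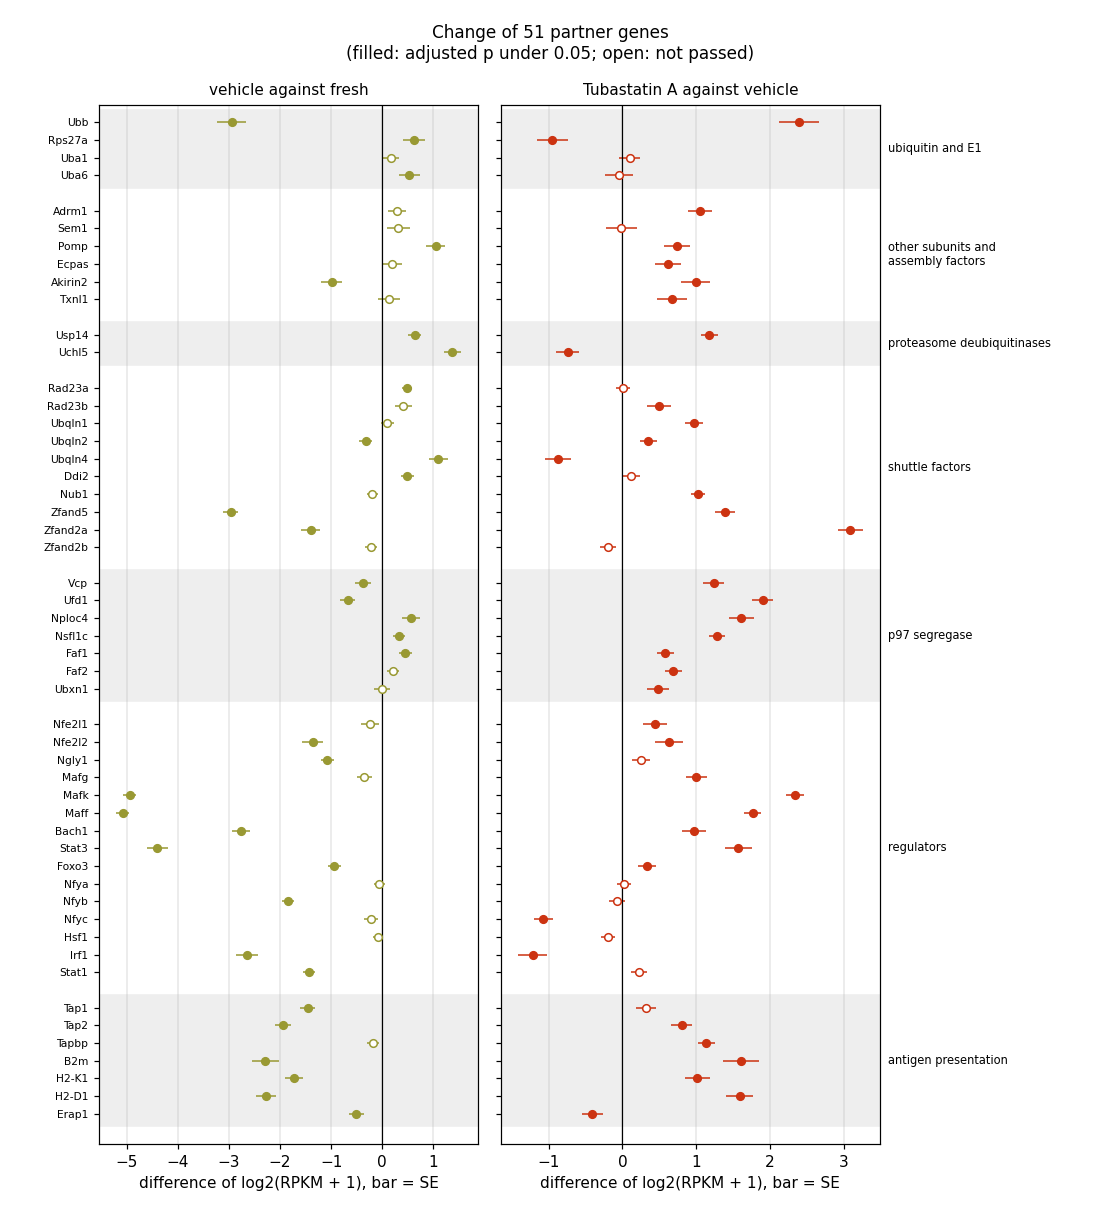
Difference of log2(RPKM + 1) of 51 genes of the ubiquitin and proteasome pathway outside the symbol pattern, between vehicle and fresh cells (left) and between Tubastatin A and vehicle cells (right), as limma estimates with SE bars, filled where the adjusted p was under 0.05. Of the regulators, 10 of 15 lie below 0 and pass on the left, and the 7 p97 genes all lie above 0 and pass on the right. Of all genes, 35.0% were lower in the comparison on the left and 29.6% higher in that on the right.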

How the data were processed

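Per the labels' protocols, polyadenylated RNA was amplified from 5 ng with SMART-Seq v4, made into libraries with an Ovation kit and read as pairs of 150 bp. The deposited table holds RPKM as the authors computed it. The submitters' processing notes name STAR, Trim Galore, edgeR, Subread with featureCounts, and mm10, without versions. The symbol pattern and all gene lists were chosen with earlier results of these data known.

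With union exon lengths of GENCODE M21, matched for 12694 symbols (99.1%), multiplying by length and by 1 size per library gave whole reads for 11654 genes (91.0%), all 48 members included, to a tolerance of 0.05 reads. A read in a gene of 1 kb is worth 0.016 to 0.0339 RPKM. Read counts cover counting error only.

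For all 12803 genes, log2(RPKM + 1) was fitted with limma 3.58.1 in R 4.3.3, with a variance trend, 1 model for the 3 groups and no filter, and p-values were adjusted by Benjamini-Hochberg. The pseudocount of 1 RPKM understates folds of low genes. The fit was also run on simulated data with independent noise and the same spread in all groups. That setting lacks the wider spread of the fresh libraries, so it cannot show how the fit handles it. Values in every library are given for catalytic subunits, activators, the inhibitor, chaperones and the 5 largest rises and falls per comparison. Of the partners, 7 are always named and up to 6 more per comparison by lowest p. Some genes of the pathway are not reported here. Exons of 15 members overlap another gene, and use of strand is not given in the sources used here. Alternatives were other scalings, pseudocounts, filters, thresholds, limma's voom on recovered reads, a fit of only the groups compared, a replicate block and each library left out. Figures were drawn with matplotlib 3.10.9 in Python 3.11.15.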

Additional observations from a re-analysis of the deposited data

Results flagged for a closer look

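In the Tubastatin A group, the highest or lowest of the 4 libraries of each of the 48 genes was compared with its nearest neighbour by Dixon's test, which by chance marks about 5% of groups. It marked 4 genes. Psma1, of the alpha ring, stood at 202 RPKM in replicate 4, with the nearest library at 179.6 RPKM. Psma2, of the same ring, stood at 186 RPKM in replicate 4, with the nearest at 161 RPKM. Psmb7, the trypsin-like subunit, stood at 51.2 RPKM in replicate 4, with the nearest at 47.1 RPKM. Replicate 4 was also the highest Tubastatin A library in 29 of the 31 standard subunits. Psme3, the nuclear cap, stood lowest at 118 RPKM in replicate 3, with the nearest at 127 RPKM.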

How the results depend on the processing

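With equal column sums, upper quartiles, medians of ratios or total recovered reads as the scaling, 30 or 31 of the 31 standard subunits rose over vehicle, and all 31 rose over fresh cells. Leaving out each library in turn gave 28 to 31 over vehicle, and for all members 30 to 35 higher and 9 to 12 lower over vehicle, 30 to 37 higher in vehicle against fresh, and 37 to 39 higher and 6 to 8 lower in Tubastatin A against fresh. Equal column sums shifted the mean scaling between the groups by 0.602, 0.121 and 0.724 on the log2 scale, and total recovered reads by 0.608, 0.08 and 0.688. The upper quartile shifted it by 0.071, 0.117 and 0.187. With total reads, 6364 genes rose and 2906 fell in vehicle against fresh, 6913 rose and 2593 fell in Tubastatin A against fresh, and 4 members fell in the latter, against 7. Under equal column sums and total reads, the partner list gave 25 and 25 higher in vehicle against fresh, against 11, and 11 and 12 lower in Tubastatin A against fresh, against 20. At an adjusted p under 0.01 the first of these counts was 7, and with at least 1.5-fold it was 5. The 1.5-fold minimum left 2390 genes higher over vehicle and 2415 higher over fresh cells.

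Some changes turned to the other sign under equal column sums and total reads. In vehicle against fresh these were Ubqln2 (0.22, 0.23) and Vcp (0.22, 0.23). In Tubastatin A against fresh they were Psme2 (0.11, 0.07), Psmg4 (0.21, 0.17), Zfand2b (0.25, 0.22), Hsf1 (0.42, 0.39) and B2m (0.05, 0.01). H2-K1 (0.01) and H2-D1 (0.03) changed sign there with equal column sums alone, and Erap1 in vehicle against fresh reached 0 with total reads. Of all these, Hsf1 passed with the new sign under both scalings (adjusted p = 0.0015 and 0.0016). Zfand2b did so with equal column sums (adjusted p = 0.046), and the others did not pass. These scalings move all genes by the shifts above.

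Replicate numbers do not mark shared animals in the labels, and same-numbered libraries did not deviate together throughout (correlations of -0.19 to 0.39). With the replicate number as a block, 33 members were higher and 2 lower in vehicle against fresh, 31 and 10 over vehicle, and 37 and 7 over fresh cells. Psmb8, Psmd7 and Psme3 lost their calls over vehicle, and Psmd9 and Psmg2 theirs over fresh cells.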
